A study of Mus musculus with 18 samples.

Results

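The mitochondrial respiratory chain was examined in mouse liver and liver tumours through the nuclear genes of its subunits. The genes were taken by symbol: those starting with Nduf, Uqcr, Atp5, Cox4, Cox5, Cox6, Cox7 or Cox8, and Sdha, Sdhb, Sdhc and Sdhd. The array carries 90 such genes on a probe set that lists 1 symbol. Of these, 80 exceeded a log2 value of 4 on at least 3 arrays and were tested, among 9053 genes tested in all, each by its probe set of highest mean. The 80 comprise 32 subunits of complex I, 8 complex I assembly factors, 4 subunits of complex II, 8 of complex III, 10 of complex IV, 17 of complex V and Cox7a2l, a paralog of a complex IV subunit. The rule uses symbols and brightness, and for Cox7a1 the brightness limit was met through tumour arrays alone.

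The samples were 18 livers or tumours of male mice, 1 array each. Normal liver came from 3 untreated wild-type (WT) C3H/HeOuJ mice aged 15 weeks. The 7 WT tumours were hepatocellular carcinoma (HCC) lesions of the same strain, dissected at 54 weeks after the carcinogen diethylnitrosamine (DEN, 100 mg/kg in week 12) and 6 injections of the hepatotoxin carbon tetrachloride (CCl4, 0.5 ml/kg, weeks 13 to 23). The 5 Tlr4-mutant tumours were HCC lesions of C3H/HeJ mice (Tlr4P712H) of that age and regimen; Tlr4 is the receptor for bacterial lipopolysaccharide, and the allele and the substrain cannot be told apart. The 3 antibiotic tumours came from WT mice whose drinking water also held vancomycin (500 mg/l) with metronidazole, neomycin and ampicillin (each at 1 g/l) from week 10 on. All tumour groups share DEN and CCl4, and nothing in the labels tells whether each sample of a group is another animal. The p-values therefore reflect the scatter among these samples alone, some of which may be technical. Values are log2 signals, and with as few as 3 arrays per group precision is limited by that number.

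Complex I (NADH dehydrogenase) and complex II (succinate dehydrogenase, also an enzyme of the tricarboxylic acid cycle) pass electrons to coenzyme Q, complex III passes them on to cytochrome c, and complex IV (cytochrome c oxidase) passes them to oxygen. The proton gradient that this builds drives complex V, the ATP synthase. The subunits are encoded partly in the nucleus and partly in mitochondrial DNA, and hepatocytes are rich in mitochondria. The transcription factors NRF1, the GABP factors of the ETS family, YY1 and the estrogen-related receptors (ERR) are known to bind promoters of many of the nuclear genes.

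Promoter sequence from RefSeq, build GRCm38.p6, was found for 68 of the 80 tested genes. In the 250 bases before each gene's start, 4 motifs were searched on both strands by exact letters: GCATGCGC for NRF1, CCGGAAGT for the ETS family, AAGATGGC for YY1 and CAAGGTCA for ERR. The NRF1 letters stood in 8 of the 68 windows (11.8%), against 2.32% of 27025 genes with a window. The ETS letters stood in 3 (4.41%, against 2.93%), the ERR letters in 3 (4.41%, against 1.31%) and the YY1 letters in 0 (against 1.59%). The 50 bases after the start were available but not searched, so matches there are not counted for any motif. The NRF1 letters preceded Atp5g2, Atp5k, Atp5l, Cox6a1, Ndufa6, Ndufa8, Ndufaf4 and Sdhb. Windows of 3 of these genes are printed because the genes differ in the tumours: Ndufaf4 and Atp5k were lower in WT tumours than in normal liver, while Atp5g2 did not pass the test. They lie on chromosomes 4, 5 and 15, the first on the plus strand at chr4:24897833-24898082, the others on the minus strand at chr5:108434400-108434649 and chr15:102671048-102671297. The sequences run 5′ to 3′ and end at the base before the gene's start. Capitals mark an NRF1 match on each strand, which overlap and together read the same on both.
Ndufaf4: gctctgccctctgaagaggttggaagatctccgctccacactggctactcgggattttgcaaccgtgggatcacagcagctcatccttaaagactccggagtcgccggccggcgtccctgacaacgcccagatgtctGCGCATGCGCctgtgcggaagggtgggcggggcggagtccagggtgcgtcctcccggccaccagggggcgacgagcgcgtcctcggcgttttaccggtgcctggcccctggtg
Atp5k: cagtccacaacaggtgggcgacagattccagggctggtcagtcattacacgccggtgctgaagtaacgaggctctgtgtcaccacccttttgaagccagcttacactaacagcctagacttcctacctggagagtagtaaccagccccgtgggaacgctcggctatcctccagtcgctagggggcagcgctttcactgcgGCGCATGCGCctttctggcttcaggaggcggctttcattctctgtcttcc
Atp5g2: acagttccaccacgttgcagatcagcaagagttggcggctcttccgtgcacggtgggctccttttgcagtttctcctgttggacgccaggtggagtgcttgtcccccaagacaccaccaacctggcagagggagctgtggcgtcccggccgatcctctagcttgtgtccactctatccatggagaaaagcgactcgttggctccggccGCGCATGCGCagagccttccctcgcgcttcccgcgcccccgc
All 3 windows hold the same 10 capital letters, 104, 41 and 33 bases before the start at their near end. Among the 55 genes with a window that were lower in WT tumours 5 held the NRF1 letters (9.09%), and among the 13 that did not pass 3 did (23.1%). A match is a description of letters and not a measured binding site.

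The 80 genes were next followed array by array. Each value was taken relative to the gene's mean over the 18 arrays, and the median over the genes was formed for each array. This level was 0.29, 0.33 and 0.34 (log2) in the 3 normal livers, above each of the 15 tumours. In WT tumours 16 to 22 it was 0.01, -0.27, -0.20, -0.27, -0.32, -0.03 and -0.01, so that tumours 17, 18, 19 and 20 lay apart from tumours 16, 21 and 22. In the Tlr4-mutant tumours 23 to 27 it was 0.12, -0.01, -0.002, -0.07 and 0.14, and in the antibiotic tumours 28 to 30 it was 0.05, -0.07 and 0.02. Both groups thus overlapped with the upper WT tumours. The same median over all 9053 genes lay between -0.04 and 0.04 on every array, group means being -0.003, -0.004, 0.02 and -0.001 in the order above.

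**Figure D1:**
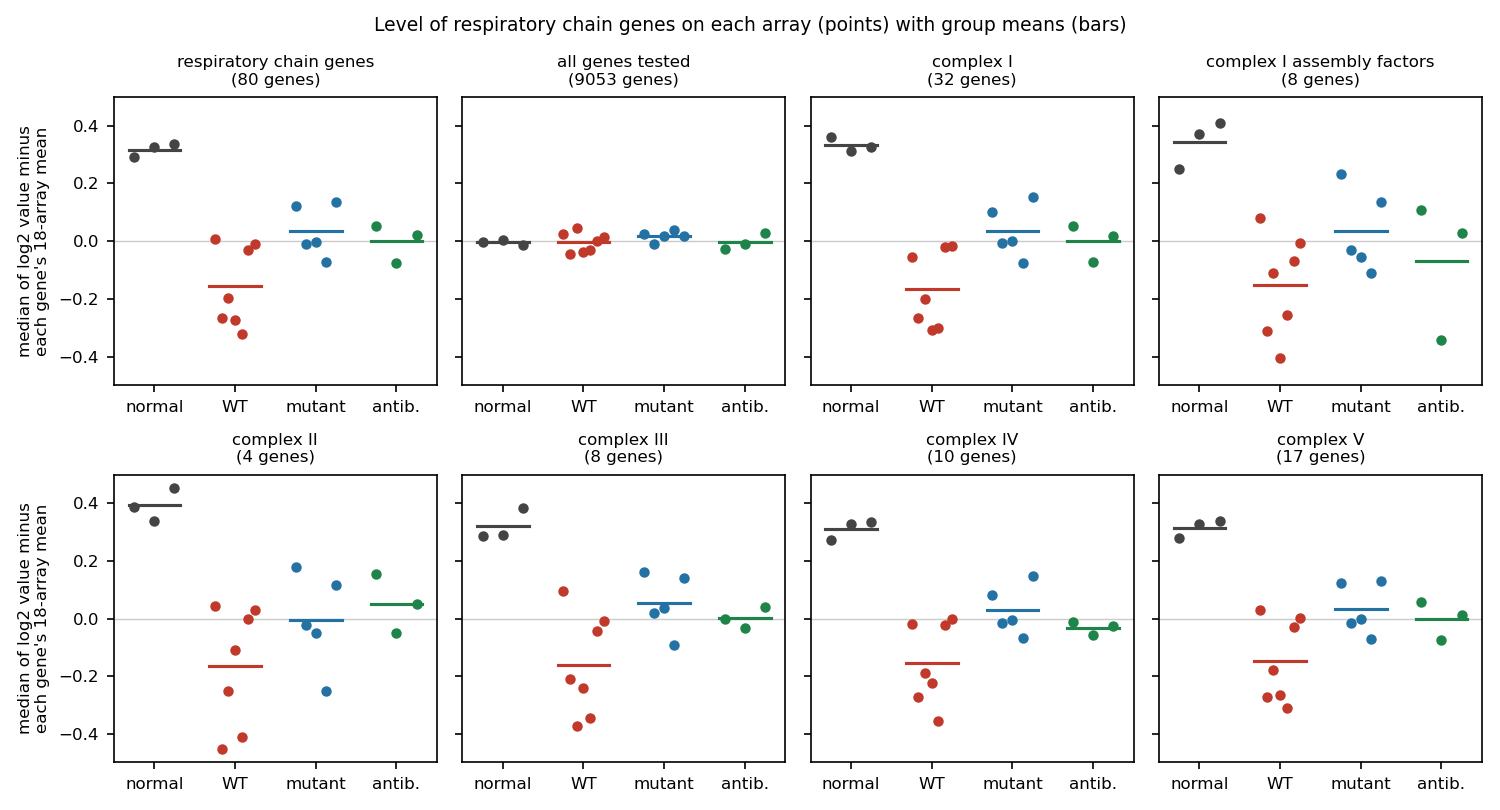
Median level of the respiratory chain genes, of all genes tested and of each complex on every array, as log2 value minus the gene's mean over 18 arrays (vertical axis), by group (horizontal axis); points are arrays and bars group means. The 3 normal livers lie at 0.29 to 0.34 for the respiratory chain genes, above all tumours, and the WT tumours spread from -0.32 to 0.01.

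Each complex had a higher mean level in normal liver than in WT tumours. The mean level in WT tumours was -0.17 ± 0.13 for complex I, -0.16 ± 0.21 for complex II, -0.16 ± 0.18 for complex III, -0.15 ± 0.14 for complex IV and -0.15 ± 0.14 for complex V (log2, SD, n = 7). In normal liver it lay between 0.31 (complex IV) and 0.39 (complex II). Complex I assembly factors gave 0.34 ± 0.08 in normal liver (SD, n = 3) and -0.15 ± 0.17 in WT tumours (SD, n = 7), with a wide spread of 0.24 (SD, n = 3) in antibiotic tumours. The lowest WT tumour was no. 19 for complex I, 17 for complex II, 18 for complex III and 20 for complexes IV and V. Of the 80 genes 30 had their lowest WT value in tumour 20, 21 in tumour 19 and 19 in tumour 17, and 38 had their highest in tumour 16. The median SD of a respiratory chain gene was 0.07 (log2) among normal livers, 0.19 among WT, 0.13 among Tlr4-mutant and 0.11 among antibiotic tumours; over genes with a mean above log2 10 it was 0.08, 0.23, 0.19 and 0.21.

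WT tumours were set against normal liver of the same strain. Of the 80 genes 64 were lower in the tumours and 0 higher (limma, Benjamini-Hochberg adjusted p under 0.05 over all 9053 genes), against 20.2% of all genes called lower and 18.8% called higher. At an unadjusted p under 0.05, 67 were lower and 1 higher, against 48.3% of all genes in either direction. The median difference was -0.46 on the log2 scale, 27.5% lower, against -0.01 over all genes. The falls were small: 2 of the 64, those of Ndufaf4 and Ndufs7, were at least 2-fold. The mean of the tumours was below that of normal liver for 78 genes (50.5% of all genes), and all 7 tumours lay below all 3 normal livers for 63 (20% of all genes). By complex, 26 of 32 complex I subunits fell, 5 of 8 assembly factors, 3 of 4 complex II subunits, 7 of 8 of complex III, 9 of 10 of complex IV and 14 of 17 of complex V. Most respiratory chain genes are bright, and 57 of the 69 with a mean above log2 10 fell, beside 22.7% of the 1469 genes that bright.

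Probe sets can cross-hybridise. When all probe sets whose names mark possible shared sequence were left out, 37 of 57 measurable genes were lower (64.9%), against 19.6% of the 7467 genes in that fit. The 65 further probe sets of 44 of these genes gave 44 falls and 1 rise, that of Cox7a2l, with 0 calls opposite to the chosen probe set; among all 16663 probe sets past the filter 19.0% were called lower. This check was added after the data were seen. In whole tissue, fewer cells of a type and less RNA per cell cannot be told apart.

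**Figure D2:**
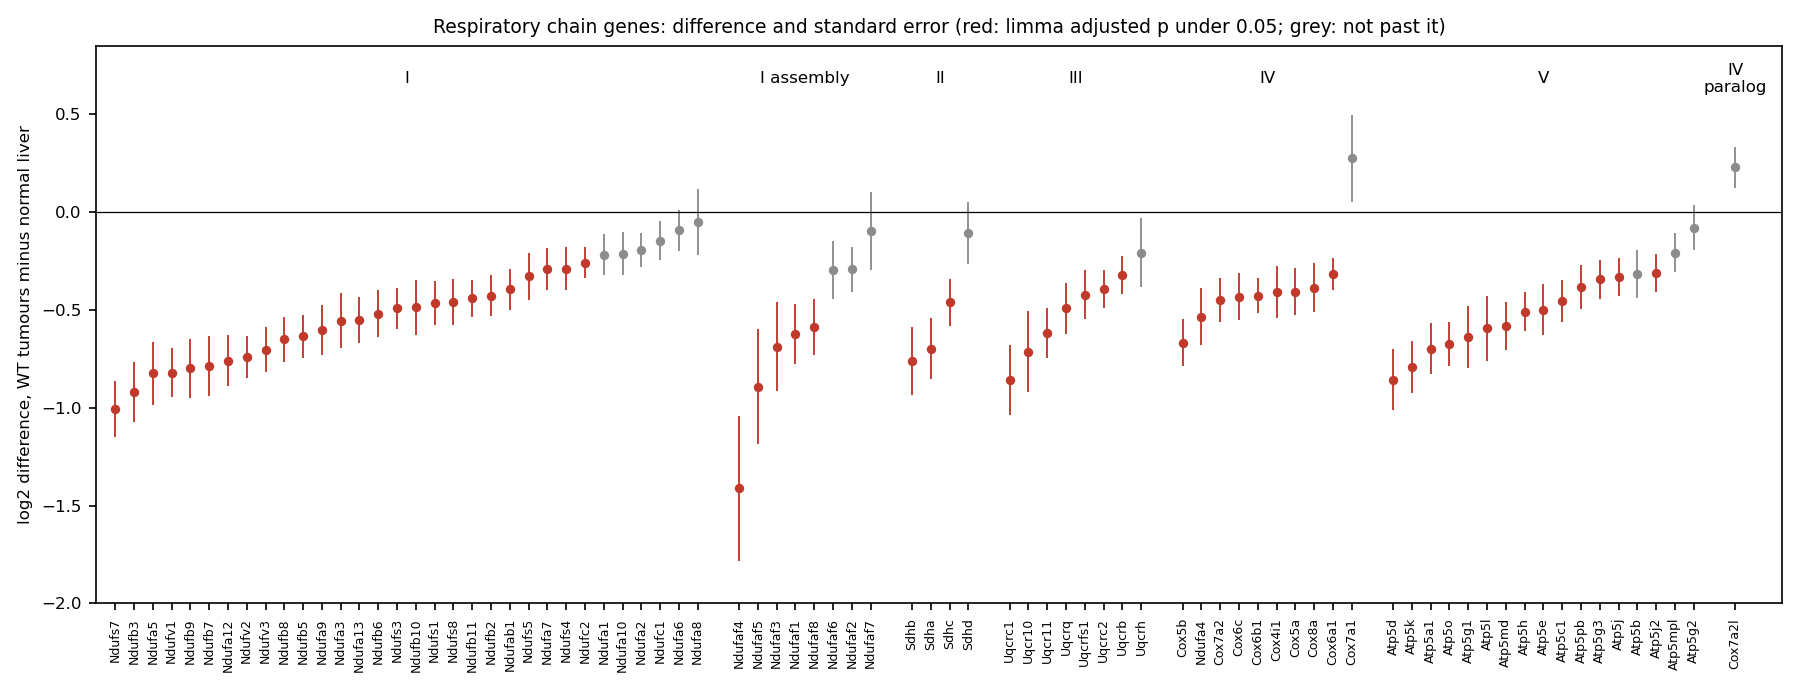
Log2 difference between WT tumours and normal liver (vertical axis) for each of the 80 respiratory chain genes, grouped by complex and ordered by size; error bars are standard errors, red marks an adjusted p under 0.05. All but Cox7a1 and Cox7a2l lie below 0, and the 64 red points are all below 0.

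Control probe sets and some cell type markers also differed between normal liver and WT tumours. For Gapdh, the 3′ control probe set exceeded the 5′ one by 1.37 to 1.61 (log2) in normal liver, 0.20 to 0.62 in WT tumours, 0.38 to 1.02 in Tlr4-mutant and 0.26 to 0.53 in antibiotic tumours. For beta-actin the excess was 3.59 to 4.20, 1.90 to 2.47, 1.92 to 2.79 and 1.85 to 2.17 in the same order. Age, tissue, treatment with DEN and CCl4, RNA quality and batch therefore cannot be told apart in any comparison with normal liver. The 8 hepatocyte markers had a summed level of 16.67 to 16.75 (log2) in normal liver, 16.34 to 16.71 in WT tumours, 16.68 to 16.82 in Tlr4-mutant and 16.67 to 16.78 in antibiotic tumours, and 1 of the 8 was lower in WT tumours, the urea cycle gene Ass1 (-1.99 ± 0.63 log2, SE, limma adjusted p = 0.0203). Of 8 macrophage markers tested 3 were higher in WT tumours, led by lysozyme, Lyz2 (2.99 ± 0.74 log2, SE, limma adjusted p = 0.00535), and the list's summed level was 9.25 to 10.41 in normal liver and 9.93 to 12.07 in WT tumours, with Marco below log2 4 on every array. Both neutrophil markers tested, S100a8 and S100a9, were also higher (summed level 4.07 to 4.25 and 4.76 to 8.29, with Cxcr2 below log2 4 throughout), and Reln was 1 of 7 stellate and fibroblast markers that rose (10.38 to 11.48 and 11.59 to 12.59, with Col1a1 and Des below log2 4 throughout). Among the others, Alas2 was the 1 erythroid marker tested and fell (summed level 8.80 to 9.19 and 5.67 to 7.73, with Hba-a1 and Slc4a1 below log2 4 throughout). Ighm was 1 of 2 B and plasma markers tested and fell, while the other, Jchain, differed by 1.66 and did not pass (7.82 to 8.26 and 4.09 to 8.0, with Cd79a and Ms4a1 below log2 4 throughout). Of 3 brown fat markers tested Elovl3, a gene that liver also expresses, fell and Cidea rose (10.18 to 10.63 and 7.01 to 8.53, with Ucp1 and Dio2 below log2 4 throughout). None of the 6 endothelial markers tested passed, nor did the 1 cholangiocyte marker, and the 5 T and NK and 6 striated muscle markers were below log2 4 on every array. S100a8, S100a9, Cidea and the macrophage marker Cd68 were below log2 4 on every normal array. They passed the filter through tumour arrays alone, which favoured a rise over normal liver. Over all genes 20.2% were called lower and 18.8% higher. The hepatocyte list (12.5% lower) and the stellate and fibroblast list (14.3% higher) lay below these shares, and the macrophage list (37.5% higher) above. The part of the control and marker differences in the respiratory chain result was not tested.

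Among subunits, Ndufs7 of complex I had the largest fall in WT tumours. Ndufs7, a core subunit that holds the last iron-sulfur cluster before coenzyme Q, read 11.67, 11.54 and 11.65 (log2) in the normal livers, 10.30 to 10.90 with a median of 10.61 in WT tumours, 11.08, 10.64, 10.64, 10.55 and 11.06 in Tlr4-mutant tumours and 10.91, 10.81 and 10.97 in antibiotic tumours. All 15 tumours were below all normal livers. In WT tumours it fell by 1.01 ± 0.14 on the log2 scale (SE), 50.3% lower (limma adjusted p = 0.000113). The flavoprotein Ndufv1, where NADH is oxidised, read 12.06, 12.01 and 12.03 in normal liver, 10.94 to 11.37 with a median of 11.29 in WT tumours, 11.51, 11.24, 11.20, 11.17 and 11.67 in Tlr4-mutant and 11.51, 11.29 and 11.50 in antibiotic tumours, again with no overlap. It fell by 0.82 ± 0.13 (SE) in WT tumours (limma adjusted p = 0.000228). Its partner in the NADH-oxidising module, Ndufv2, read 11.96, 11.82 and 11.95 in normal liver, 10.95 to 11.37 with a median of 11.16 in WT tumours, 11.49, 11.42, 11.42, 11.45 and 11.67 in Tlr4-mutant and 11.47, 11.30 and 11.42 in antibiotic tumours. Here the 5 Tlr4-mutant tumours also lay above all 7 WT tumours. Ndufv2 fell by 0.74 ± 0.11 (SE) in WT tumours (limma adjusted p = 0.000135).

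All 6 core subunits tested fell in WT tumours, with a median difference of -0.62 (log2). The iron-sulfur subunit Ndufs3 read 11.53, 11.57 and 11.59 in normal liver, 10.83 to 11.28 with a median of 11.08 in WT tumours, 11.41, 11.22, 11.38, 11.23 and 11.41 in Tlr4-mutant and 11.53, 11.19 and 11.28 in antibiotic tumours, and fell by 0.49 ± 0.11 (SE) in WT tumours (limma adjusted p = 0.00223). Ndufs8, another iron-sulfur subunit, read 12.41, 12.30 and 12.35, 11.68 to 12.08 with a median of 11.90, 12.08, 12.10, 12.10, 12.13 and 12.13, and 12.11, 11.76 and 11.63 in the same order of groups; the Tlr4-mutant tumours were tightly grouped and the antibiotic tumours the most spread. It fell by 0.46 ± 0.12 (SE) in WT tumours (limma adjusted p = 0.00608), and Ndufs1, the largest subunit, by 0.47. Of the 26 accessory subunits, which surround the core, 20 fell, with a median difference of -0.46 over all 26. Ndufb3 led them: it read 10.91, 10.91 and 10.92 in normal liver, 9.66 to 10.38 with a median of 9.84 in WT tumours, 10.32, 10.12, 10.32, 10.09 and 10.46 in Tlr4-mutant and 10.25, 10.26 and 10.20 in antibiotic tumours, below normal liver on every tumour array. It fell by 0.92 ± 0.15 (SE) in WT tumours, 47.2% lower (limma adjusted p = 0.000435). Ndufa5, Ndufb9, Ndufb7, Ndufa12 and Ndufv3 followed, each lower by 0.70 to 0.82 (log2). The 6 that did not pass were Ndufa1, Ndufa2, Ndufa6, Ndufa8, Ndufa10 and Ndufc1, with differences from -0.22 to -0.05. Ndufa1, an X-linked subunit needed for assembly of the membrane arm, read 12.49, 12.52 and 12.57 in normal liver, 12.10 to 12.54 with a median of 12.35 in WT tumours, 12.46, 12.54, 12.55, 12.39 and 12.52 in Tlr4-mutant and 12.29, 12.10 and 12.06 in antibiotic tumours; only the antibiotic tumours were clear of normal liver (limma adjusted p = 0.0511 for that difference).

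The assembly factors help to build complex I and are not part of it. Ndufaf4, which acts early in assembly, had the largest difference of the 80 genes. It read 10.20, 10.35 and 9.94 in normal liver, 7.95 to 9.74 with a median of 8.45 in WT tumours, 8.30, 8.26, 9.35, 9.38 and 9.71 in Tlr4-mutant and 9.60, 9.20 and 9.01 in antibiotic tumours. The tumours were below normal liver throughout but varied widely, with Tlr4-mutant tumours 23 and 24 about 1 log2 unit under tumours 25 to 27. In WT tumours it fell by 1.41 ± 0.37 (SE), 62.4% lower (limma adjusted p = 0.00766). Ndufaf5, a hydroxylase of Ndufs7, was dim: it read 4.67, 4.83 and 5.59 in normal liver, 3.84 to 4.78 with a median of 4.11 in WT tumours, 5.07, 4.82, 4.27, 3.66 and 4.56 in Tlr4-mutant and 4.72, 4.03 and 4.90 in antibiotic tumours, and the groups overlapped. Its fall by 0.89 in WT tumours (limma adjusted p = 0.0247) rested on normal liver 3: without it the difference was -0.61 (limma adjusted p = 0.168). Ndufaf3, Ndufaf1 and Ndufaf8 also fell, by 0.69, 0.62 and 0.59. Ndufaf2, Ndufaf6 and Ndufaf7 did not pass, with differences of -0.29, -0.30 and -0.10.

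In complex II, Sdha (the flavoprotein that oxidises succinate) and Sdhb (its iron-sulfur partner) fell in WT tumours, as did the membrane anchor Sdhc. Sdhb averaged 12.03 ± 0.11 (log2, SD, n = 3) in normal liver and 11.27 ± 0.35 in WT tumours (SD, n = 7), a difference of -0.76 ± 0.17 (SE, limma adjusted p = 0.00334). Sdha and Sdhc differed by -0.70 and -0.46. The other anchor, Sdhd, averaged 10.37 ± 0.07 and 10.26 ± 0.29, a difference of -0.11 that did not pass (limma adjusted p = 0.607). In complex III, 7 of 8 subunits fell. Uqcrc1, a core protein of the matrix side, read 10.64, 10.72 and 10.77 in normal liver, 9.27 to 10.34 with a median of 9.79 in WT tumours, 10.47, 10.30, 10.36, 10.45 and 10.81 in Tlr4-mutant and 10.38, 10.20 and 10.46 in antibiotic tumours. WT tumour 17 was the lowest of all, and Tlr4-mutant tumour 27 reached above the normal livers. Uqcrc1 fell by 0.86 ± 0.18 (SE) in WT tumours, 44.9% lower (limma adjusted p = 0.00184). The small subunits Uqcr10, Uqcr11 and Uqcrq were lower by 0.71, 0.62 and 0.49, the Rieske iron-sulfur protein Uqcrfs1 by 0.42, and the core protein Uqcrc2 by 0.39. Uqcrh, the hinge protein, did not pass (-0.21, limma adjusted p = 0.371).

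**Figure D3:**
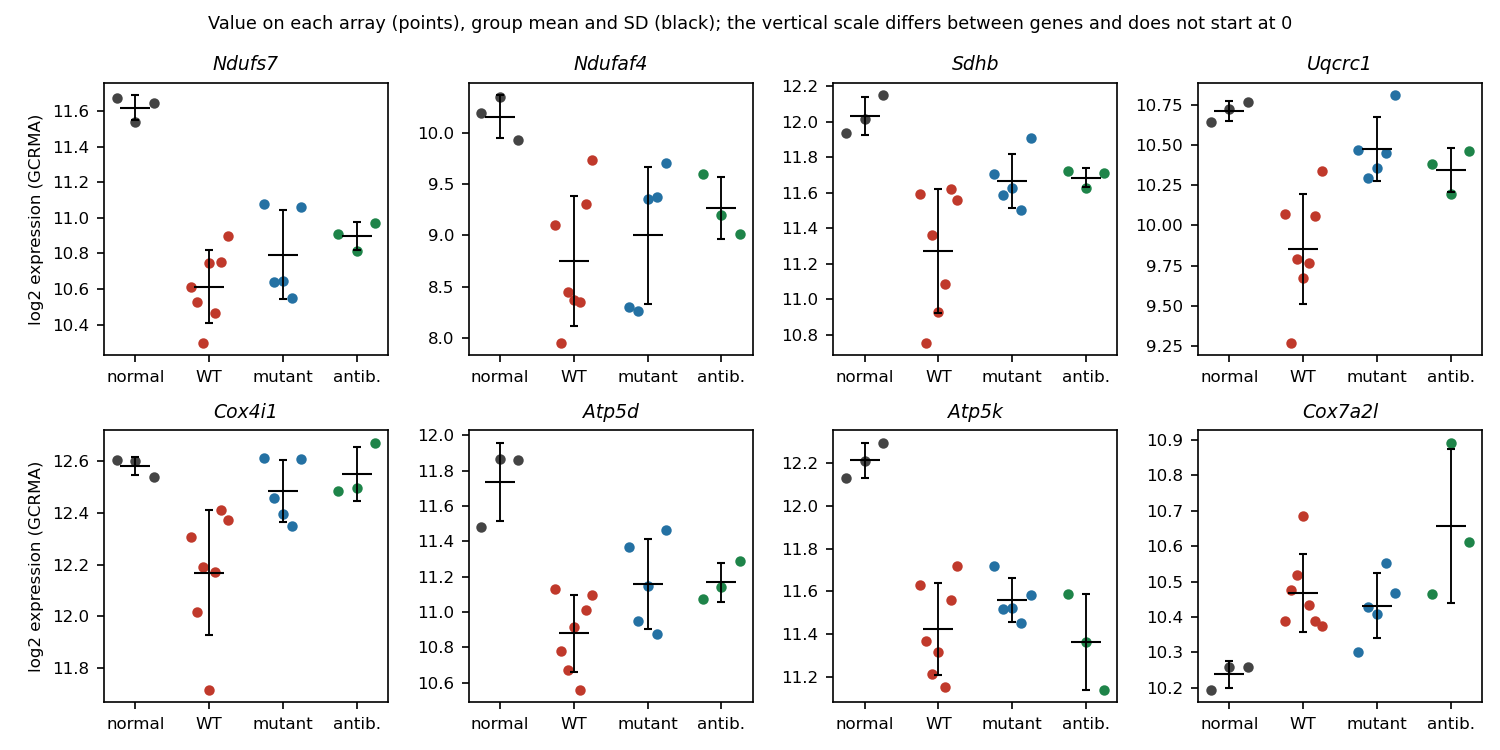
Log2 values of 8 respiratory chain genes on every array (points) by group, with the group mean and SD in black; each panel has its own vertical scale, which does not start at 0. For Ndufs7, Ndufaf4, Atp5d and Atp5k the normal livers lie above all tumours, and for Cox7a2l below all tumours.

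Complex IV has subunits with tissue-specific isoforms. The liver-type or general forms were bright and fell in WT tumours: Cox6a1 read 13.95, 13.99 and 13.99 in normal liver, 13.55 to 13.80 with a median of 13.63 in WT tumours, 13.75, 13.74, 13.79, 13.68 and 13.83 in Tlr4-mutant and 13.73, 13.67 and 13.70 in antibiotic tumours. It fell by 0.32 ± 0.08 (SE) in WT tumours (limma adjusted p = 0.00725). Cox6b1 read 13.11, 13.11 and 13.13, 12.53 to 12.80 with a median of 12.76, 12.71, 12.73, 12.73, 12.72 and 12.91, and 12.78, 12.71 and 12.72 in the same order, and fell by 0.43 ± 0.09 (SE; limma adjusted p = 0.00207). For both, all tumours lay below all normal livers. With probe sets of possible shared sequence left out, Cox6b1 differed by -0.19 and did not pass (limma adjusted p = 0.156). Cox7a2, the liver form of subunit VIIa, read 12.85, 12.88 and 12.91, 12.09 to 12.64 with a median of 12.49, 12.60, 12.51, 12.47, 12.29 and 12.65, and 12.53, 12.52 and 12.54, and fell by 0.45 ± 0.11 (SE; limma adjusted p = 0.00571). Cox4i1, the general form of subunit IV, read 12.60, 12.60 and 12.54, 11.72 to 12.41 with a median of 12.19, 12.61, 12.46, 12.39, 12.35 and 12.61, and 12.48, 12.49 and 12.67. The WT tumours were below normal liver on every array, while the other tumour groups overlapped with it. Cox4i1 fell by 0.41 ± 0.13 (SE) in WT tumours (limma adjusted p = 0.0226; up to 0.0746 without 1 of the normal livers, each of which ended the call). Cox8a, the liver form of subunit VIII, read 9.75, 9.97 and 9.95, 9.27 to 9.72 with a median of 9.46, 10.04, 9.79, 9.80, 9.70 and 10.01, and 9.86, 9.68 and 9.89, with WT tumours again the group clear of normal liver. It fell by 0.39 ± 0.12 (SE) in WT tumours (limma adjusted p = 0.0225), a call that ended without normal liver 2 or 3, with WT tumours 17 and 19 both left out, with a gene's probe sets averaged (-0.32, limma adjusted p = 0.0656) or without probe sets of possible shared sequence (-0.25, adjusted p = 0.187). Ndufa4, named for complex I but a subunit of complex IV, read 12.22, 12.26 and 12.22, 11.45 to 12.01 with a median of 11.73, 12.07, 11.86, 11.82, 11.60 and 12.01, and 11.87, 11.75 and 12.26, and fell by 0.53 ± 0.14 (SE; limma adjusted p = 0.00866). Cox5a, Cox5b and Cox6c were lower by 0.41, 0.67 and 0.43.

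The heart and muscle, testis or hypoxia-linked counterparts were at the array's low end. Cox7a1, the heart and muscle form of subunit VIIa, lay just inside the brightness limit: it read 3.72, 3.85 and 3.46 in normal liver, 3.61 to 4.76 with a median of 3.96 in WT tumours, 4.01, 4.72, 4.06, 4.03 and 4.14 in Tlr4-mutant and 3.62, 4.14 and 3.83 in antibiotic tumours. It was above log2 4 on none of the normal arrays and on all 5 Tlr4-mutant arrays, and no comparison passed. The next dimmest gene inside the limit, Ndufaf5, is described above. Just outside, Cox7c exceeded log2 4 on 2 normal arrays alone (4.07 and 4.12) and averaged 3.84, 3.21, 2.92 and 3.45 in normal, WT, Tlr4-mutant and antibiotic samples. The complex I subunits Ndufb1 and Ndufb4 averaged 3.21, 2.78, 2.72 and 2.77, and 1.70, 1.72, 1.71 and 1.73, in the same order. Group means of the other 7 genes below the limit were 2.05, 2.12, 2.13 and 2.26 for Cox4i2, 2.7, 2.54, 2.47 and 2.47 for Cox6a2, 2.50, 2.60, 2.46 and 2.47 for Cox6b2, 1.58, 1.69, 1.55 and 1.62 for Cox7b2, 2.25, 2.11, 2.14 and 2.12 for Cox8b, 2.33, 2.33, 2.38 and 2.38 for Cox8c and 1.67, 1.63, 1.59 and 1.71 for Ndufa4l2. None of these 10 genes was tested, and their levels cannot be ranked. A low reading of the probe set used does not show that a gene, such as Cox7c, Ndufb1 or Ndufb4, is not expressed.

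Cox7a2l, a paralog of subunit VIIa known for its part in joining complexes III and IV into supercomplexes, went the other way. It read 10.19, 10.26 and 10.26 in normal liver, 10.37 to 10.69 with a median of 10.44 in WT tumours, 10.30, 10.43, 10.41, 10.55 and 10.47 in Tlr4-mutant and 10.47, 10.89 and 10.61 in antibiotic tumours, so that every tumour was above every normal liver. The difference was 0.23 ± 0.10 (SE, limma adjusted p = 0.0922) in WT, 0.19 ± 0.11 (adjusted p = 0.212) in Tlr4-mutant and 0.42 ± 0.12 (adjusted p = 0.0326) in antibiotic tumours, of which the last passed. That call ended without any 1 of the normal livers or without antibiotic tumour 29. A further probe set of the gene was higher in all 3 tumour groups (0.37, 0.36 and 0.57 log2; limma adjusted p = 0.0157, 0.035 and 0.00854), and another passed in none (0.06, 0.12 and 0.28).

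In complex V, 4 of 5 genes of the F1 head and central stalk fell in WT tumours, all 4 of the peripheral stalk, 2 of 3 of the c ring and 4 of 5 other Fo subunits. Atp5d, the delta subunit of the central stalk, read 11.48, 11.87 and 11.86 in normal liver, 10.56 to 11.13 with a median of 10.91 in WT tumours, 11.37, 10.95, 11.15, 10.88 and 11.46 in Tlr4-mutant and 11.07, 11.14 and 11.29 in antibiotic tumours. Normal liver 1 was the lowest of its group and still above each tumour. Atp5d fell by 0.86 ± 0.16 (SE) in WT tumours, 44.8% lower (limma adjusted p = 0.000806). Atp5a1, the alpha subunit of the catalytic head, was lower by 0.70, while Atp5b, the catalytic beta subunit, differed by -0.32 and did not pass (limma adjusted p = 0.0503). Atp5k, the e subunit of Fo that takes part in dimers of the synthase, read 12.13, 12.21 and 12.30 in normal liver, 11.15 to 11.72 with a median of 11.37 in WT tumours, 11.72, 11.52, 11.52, 11.45 and 11.58 in Tlr4-mutant and 11.59, 11.36 and 11.14 in antibiotic tumours. All tumours lay below all normal livers, and the antibiotic tumours reached the lowest value. It fell by 0.79 ± 0.13 (SE) in WT tumours (limma adjusted p = 0.000437). The 3 c ring genes encode the same mature protein; whether their changes differ was not tested. Atp5g1 read 10.95, 11.00 and 11.06 in normal liver, 9.99 to 10.87 with a median of 10.38 in WT tumours, 10.99, 10.91, 10.83, 10.58 and 10.90 in Tlr4-mutant and 10.84, 10.56 and 10.56 in antibiotic tumours, and fell by 0.64 ± 0.16 (SE) in WT tumours (limma adjusted p = 0.00569). Atp5g3 fell by 0.34, and Atp5g2 averaged 10.24 ± 0.12 in normal liver (SD, n = 3) and 10.16 ± 0.14 in WT tumours (SD, n = 7), a difference of -0.08 that did not pass (limma adjusted p = 0.594). In the peripheral stalk, Atp5o, Atp5h, Atp5pb and Atp5j were lower by 0.67, 0.51, 0.38 and 0.33.

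Tlr4-mutant and antibiotic tumours were compared with the same 3 normal livers, so these comparisons share their control. That control was untreated WT liver. The mutant substrain or the antibiotics therefore cannot be told apart here from age, tissue, DEN and CCl4. In Tlr4-mutant tumours 27 of the 80 genes were lower and 0 higher (limma; at an unadjusted p under 0.05, 42 lower and 1 higher, against 37% of all genes in either direction). Over all genes 10.5% were called lower and 11.7% higher. The median difference was -0.28 (log2), 17.6% lower, against 0.02 over all genes. By complex 11 of 32 complex I subunits fell, 2 of 8 assembly factors, 1 of 4 of complex II, 2 of 8 of complex III, 4 of 10 of complex IV and 7 of 17 of complex V. Ndufaf4 fell by 1.16 ± 0.39 (SE; limma adjusted p = 0.0437), a call that ended without any 1 of the normal livers or of tumours 23 to 26, without the filter on low values (adjusted p = 0.0648) or with a gene's probe sets averaged (-0.84, adjusted p = 0.0944). Ndufs7 fell by 0.83 ± 0.15 (adjusted p = 0.00144) and Ndufv1 fell by 0.68 ± 0.13 (adjusted p = 0.00254); with probe sets of possible shared sequence left out, other probe sets of the 2 genes gave -0.36 and -0.30 and did not pass. Without those probe sets 8 of 57 genes were lower (14%), against 10.2% of all genes in that fit. The count was 11, 10 or 8 of 80 without normal liver 1, 2 or 3 and 16 without Tlr4-mutant tumour 26. Of the cell type markers, S100a8 and S100a9 of neutrophils were higher in these tumours, and Alas2 was lower. Of 2 B and plasma markers tested Jchain was higher (3.64 log2, limma adjusted p = 0.0166), while Ighm differed by -2.42 and did not pass. Of 3 brown fat markers tested Cidea was higher (4.27 log2, limma adjusted p = 0.00236). Elovl3 differed by -3.81 and Ppargc1a by -0.04, and neither passed. S100a8, S100a9 and Cidea were below log2 4 on every normal array, so the filter favoured their rise. No hepatocyte, macrophage, endothelial or stellate marker passed, and the part of the markers in the result was not tested.

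In antibiotic tumours 19 genes were lower and 1, Cox7a2l, higher (limma; at an unadjusted p under 0.05, 43 lower and 1 higher, against 32% of all genes in either direction). Over all genes 6.91% were called lower and 8.11% higher. The median difference was -0.35 (log2), 21.6% lower, against -0.002 over all genes. Of complex I subunits 10 of 32 fell, of the assembly factors 1 of 8, of complex II 1 of 4, of complex III 2 of 8, of complex IV 1 of 10 and of complex V 4 of 17. Atp5k fell by 0.85 ± 0.16 (SE; limma adjusted p = 0.00261), Ndufs7 fell by 0.72 ± 0.17 (adjusted p = 0.0105) and Ndufb3 fell by 0.68 ± 0.18 (adjusted p = 0.0216), the last call ending without any 1 of the normal livers or without antibiotic tumour 29. Ndufs7 did not pass when probe sets of possible shared sequence were left out (-0.28) or when a gene's probe sets were averaged (-0.50, limma adjusted p = 0.0819). The assembly factor that fell here was Ndufaf2 (-0.46 ± 0.14, SE, limma adjusted p = 0.034), which differed by -0.29 in WT tumours. Without probe sets of possible shared sequence 5 of 57 genes were lower (8.77%), against 6.94% of all genes in that fit. The count of genes lower was 4, 7 or 4 without normal liver 1, 2 or 3, and 3 or 11 without antibiotic tumour 29 or 30. Of the cell type markers Alas2 was lower in these tumours (-2.64 log2, limma adjusted p = 0.0304) and no other passed, the 8 hepatocyte markers included. S100a8 and S100a9 read higher in all 3 antibiotic tumours than in the normal livers, as did 19.8% of all genes. Their median difference was 1.96 and neither passed (limma adjusted p = 0.107 and 0.197). Both were below log2 4 on every normal array. Of the 8 hepatocyte markers 3 lay wholly below the normal livers and 2 wholly above, beside 22.5% and 19.8% of all genes. The part of these markers in the result was not tested.

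**Figure D4:**
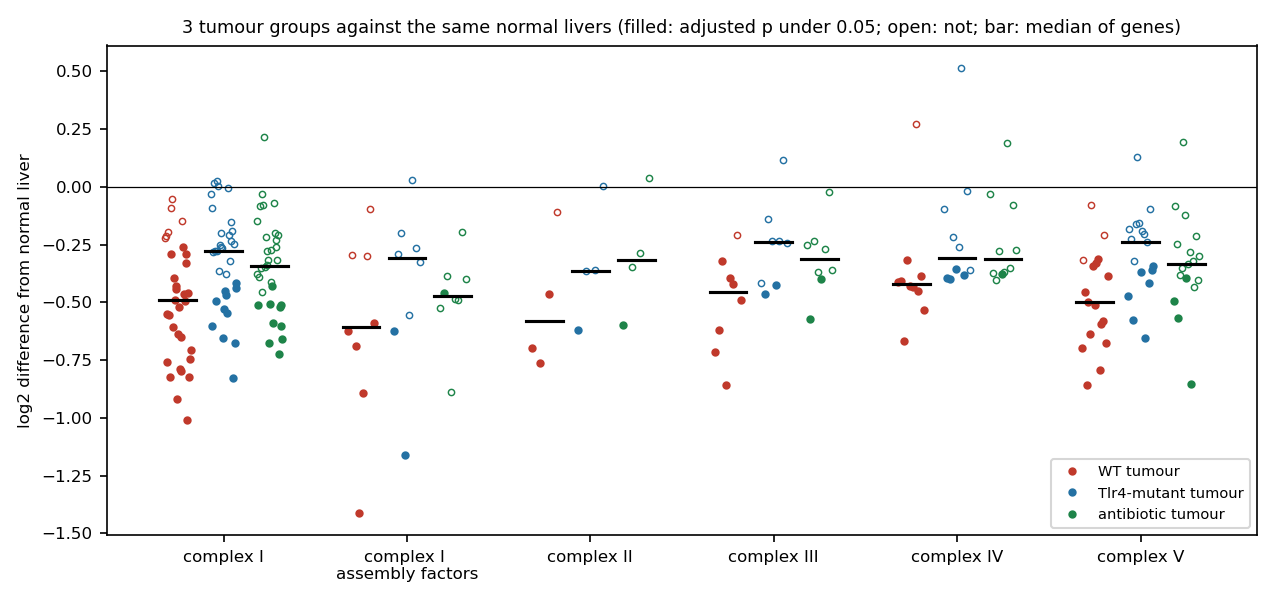
Log2 difference from normal liver (vertical axis) of each respiratory chain gene in the 3 tumour groups, by complex; filled points passed an adjusted p of 0.05, open points did not, and bars are medians over genes. Over all 80 genes the medians are -0.46 in WT, -0.28 in Tlr4-mutant and -0.35 in antibiotic tumours, all 3 against the same normal livers.

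The tumour groups were then compared with each other, to ask whether the Tlr4-mutant substrain or antibiotics went with another level of these genes. None of the 80 genes passed in any of the 3 comparisons. WT tumours had the lowest of the 4 group means for 68 of the 80 genes, beside 28.6% of all genes. Between Tlr4-mutant and WT tumours 0 genes were called (limma; 31 had an unadjusted p under 0.05, all higher in the mutant, beside 9.41% of all genes), and the median difference was 0.18 (log2) against 0.03 over all genes. The mutant mean was the higher one for 77 of the 80 genes (53.4% of all genes). Among all 9053 genes 24 passed (0.265%). The smallest adjusted p was that of Uqcrc1, with a difference of 0.63 ± 0.15 (SE; 95% interval 0.31 to 0.95; limma adjusted p = 0.12), followed by Ndufv2 (0.33 ± 0.09; 0.13 to 0.52; adjusted p = 0.147) and Atp5g1 (0.48 ± 0.13; 0.19 to 0.76; adjusted p = 0.148). Without WT tumour 22 Uqcrc1 passed (limma adjusted p = 0.0404). All 5 mutant tumours were above all 7 WT tumours for 5 genes, Ndufv2, Ndufb11, Ndufa2, Uqcrb and Ndufaf6 (0.884% of all genes), for Ndufb11 by less than the second decimal. The 8 hepatocyte markers moved the same way: all 8 were higher in the mean of the mutant tumours, with a median difference of 0.24 (log2), though none passed. Their summed level of 16.68 to 16.82 in mutant tumours barely overlapped with the 16.34 to 16.71 in WT tumours. That level sums linear values, so it mostly follows the brightest markers, Alb, Ttr and Apoa1, and not all 8 alike. Of the other markers, S100a8 and S100a9 were higher in the mean of the mutant tumours by a median of 1.89 (both at an unadjusted p under 0.05; smallest limma adjusted p = 0.199), and 5 of 6 endothelial markers by a median of 0.66 over the 6. The macrophage and stellate lists had medians of -0.26 and -0.29. Both B and plasma markers (median 1.17) and all 3 brown fat markers (median 0.77) were higher in the mean of the mutant tumours. The 1 cholangiocyte and 1 erythroid marker differed by 0.68 and 0.08, and no marker of any list passed. The part of these markers in the differences of the respiratory chain genes was not tested.

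Between antibiotic and WT tumours 0 genes were called (limma; 13 had an unadjusted p under 0.05, all higher in antibiotic tumours, beside 7.59% of all genes), with a median difference of 0.18 against 0.02 over all genes and 69 of the 80 genes higher in the mean (51.9% of all genes). Of the 8 hepatocyte markers 7 were higher in the mean of the antibiotic tumours, by a median of 0.11, and none passed. Endothelial markers were higher for 5 of 6 (median 0.24), macrophage for 4 of 8 (-0.08) and stellate and fibroblast for 4 of 7 (0.16). Brown fat markers were higher for 2 of 3 (0.78), B and plasma for 1 of 2 (0.28) and neutrophil for 0 of 2 (-0.39). The 1 cholangiocyte and 1 erythroid marker differed by 0.66 and 0.05, and none of these passed. The part of these markers was not tested. Among all 9053 genes 8 passed (0.0884%). Cox4i1 differed by 0.38 ± 0.13 (SE; 95% interval 0.10 to 0.66; limma adjusted p = 0.211), Uqcrc1 by 0.49 ± 0.18 (0.12 to 0.87; adjusted p = 0.226) and Ndufs3 by 0.26 ± 0.11 (0.04 to 0.49; adjusted p = 0.259). The antibiotic tumours lay above all WT tumours for 3 genes, Cox4i1, Ndufb7 and Sdhb (1.8% of all genes). Both comparisons use the same WT tumours. Between Tlr4-mutant and antibiotic tumours the median difference was 0.02, and 0 genes were called (limma; 3 had an unadjusted p under 0.05, beside 6.11% of all genes for higher), against 21 of all genes (0.232%). Those 3 were Ndufaf6, an assembly factor, Ndufa1 and Ndufs8. Ndufaf6 read 7.91, 7.99, 8.23, 7.96 and 7.95 in Tlr4-mutant and 7.85, 7.21 and 7.40 in antibiotic tumours, beside 7.78, 8.13 and 8.03 in normal liver and 7.42 to 7.90 with a median of 7.76 in WT tumours. Its difference was 0.52 ± 0.16 (SE; 95% interval 0.19 to 0.85; limma adjusted p = 0.275; 0.0496 without antibiotic tumour 28), that of Ndufa1 0.34 ± 0.11 (0.11 to 0.58; adjusted p = 0.294) and that of Ndufs8 0.28 ± 0.12 (0.02 to 0.54; adjusted p = 0.455). These intervals span differences as large as those between some tumours and normal liver, so a missed threshold does not show equal levels.

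The surrounding mitochondrial genes were counted in the same fit of WT tumours against normal liver. Of the mitochondrially encoded subunits the array holds ND5 of complex I, which was bright in both groups (13.18 in normal liver and 13.16 in WT tumours, log2) and differed by -0.02 ± 0.17 (SE, limma adjusted p = 0.929). Of 41 assembly factors outside the symbol rule 19 fell and 0 rose (20.2% of all genes fell), led by Ecsit and Foxred1, which act on complex I, at -1.88 and -1.58 log2. In coenzyme Q synthesis 9 of 12 genes fell and 1 rose: the kinase-like genes Coq8a and Coq8b went opposite ways, at -1.90 and 2.35 log2.

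Among 20 genes of the tricarboxylic acid cycle and pyruvate entry 8 fell and 0 rose, with Dlat of the pyruvate dehydrogenase complex at -0.82 and the kinase Pdk1, which restrains that complex, at -0.80 log2. Of 17 regulators of mitochondrial biogenesis and DNA maintenance 7 fell and 1 rose. The coactivator Ppargc1b was at -3.04 ± 0.73 log2 (SE, limma adjusted p = 0.00455) and Polg2, the accessory subunit of the mitochondrial DNA polymerase, at -2.01 log2. Of 76 mitochondrial ribosomal protein genes 32 fell and 4 rose, with Mrps27 at -1.22 and Mrps23 at 1.14 log2. Of 14 genes for cytochrome c, cytochrome c1 and carriers 3 fell and 0 rose, including Cyc1, the cytochrome c1 of complex III, at -0.74 and the outer membrane channel Vdac1 at -0.58 log2.

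Of 29 import and cristae genes 6 fell and 4 rose, with the cristae protein Chchd6 at 1.16 and the import motor subunit Timm44 at -0.90 log2. From the list of antioxidant enzymes and uncouplers 8 genes were tested, of which 3 fell and 1 rose. No uncoupler was among the 8. The mitochondrial superoxide dismutase Sod2 was at -1.25 ± 0.17 log2 (SE, limma adjusted p = 9.98e-05) and the thioredoxin reductase Txnrd2 at -0.73 log2. The share of genes that fell in these lists ran from 20.7% for import and cristae to 75% for coenzyme Q synthesis, with the 80 respiratory chain genes above them at 64 of 80 and all genes at 20.2%; whether the lists differ from each other was not tested. Between tumour groups 1 gene of these lists passed. Hccs, the enzyme that attaches heme to cytochrome c, chosen after its value was seen, was higher in Tlr4-mutant than in WT tumours (0.88 ± 0.16 log2, SE, limma adjusted p = 0.0215) and than in antibiotic tumours (1.11 ± 0.20 log2, SE, adjusted p = 0.0199), a call against WT that was lost when probe sets of a gene were averaged.

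**Figure D5:**
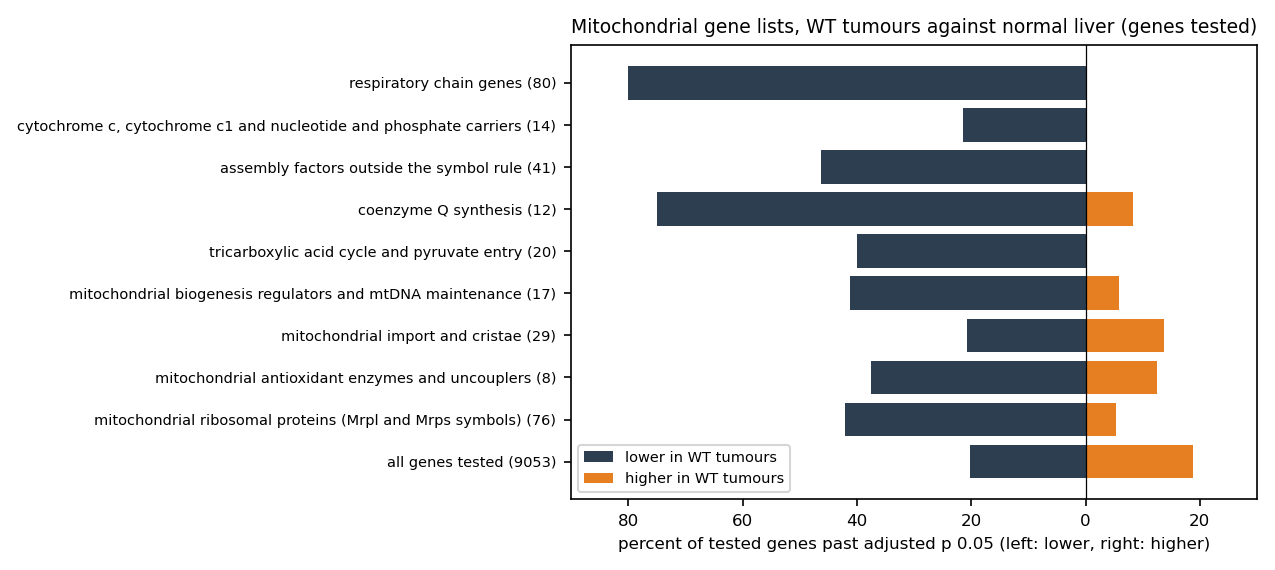
Percent of tested genes lower (bars to the left) or higher (to the right) in WT tumours than in normal liver at an adjusted p under 0.05, for each mitochondrial gene list with at least 5 tested genes; numbers in brackets are genes tested. Of the respiratory chain genes 64 of 80 were lower and 0 higher, and of all genes 20.2% were lower and 18.8% higher.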

How the data were processed

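Expression had been measured on 18 oligonucleotide arrays of 45101 probe sets, from 100 ng of RNA each. The authors deposited log2 values made with GCRMA, which corrects background and summarises probes, per the submitters' processing notes; its version and the between-array step are not given in the sources used here. Every column was mapped to a sample by its label (0 unmapped). Probe sets with 1 symbol in the platform table were kept when above log2 4 on at least 3 arrays (14689), and the probe set of highest mean stood for each of 9053 genes. Arrays have no read depth; signal over background limits precision. Array medians of these probe sets lay between 6.82 and 6.98 (log2), and on each array 14455 to 15305 of all probe sets lay above log2 4. No 2 arrays held identical values.

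Group means were fitted to all 18 arrays with limma 3.58.1 (R 4.3.3; 2-sided moderated tests, Benjamini-Hochberg over 9053 genes, adjusted p under 0.05) for 6 comparisons. The fit was tested on simulated data. Motifs were searched with python 3.11.15, and figures drawn with matplotlib 3.10.9. Complexes, lists of mitochondrial genes and cell type markers were written by hand, and the members and lists were chosen with earlier results of these data known. Full values are given for the 6 largest falls or rises past the threshold in WT tumours against normal liver, the 3 largest in each other comparison (or the 3 of smallest p) and isoform pairs. From each other list the 2 passing genes of largest difference are named. Alternatives were other filters, probe set choices, scalings, variance models, thresholds and leaving out arrays.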

Additional observations from a re-analysis of the deposited data

Results flagged for a closer look

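In 4 of 58 groups of 4 to 10 arrays examined, 1 array stood far from the others of its group by Dixon's criterion. Chance would flag about 1 in 20. Normal liver and antibiotic tumours, with 3 arrays each, were not examined in this way. Ndufaf6 read 8.23 (log2) in Tlr4-mutant tumour 25, against 7.91 to 7.99 in the other mutant tumours. Cox6b1 read 12.91 in Tlr4-mutant tumour 27, against 12.71 to 12.73. Cox7a1, near the brightness limit, read 4.76 in WT tumour 22, against 3.61 to 4.04, and 4.72 in Tlr4-mutant tumour 24, against 4.01 to 4.14.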

How the results depend on the processing

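For the respiratory chain genes given full values by the rule above, no setting run reversed a difference in the comparison that named them. For genes named from the other lists this was not examined gene by gene. The direction of the other called genes was not compared between settings. In WT tumours against normal liver the 64 genes lower stayed between 45 and 71 under the other settings, except 37 of 57 without probe sets that may share sequence and 2 at a minimum of 2-fold; leaving out 1 array gave 49 to 66, and leaving out WT tumours 17 and 19 together gave 61. Under array weights 1 gene was higher. In Tlr4-mutant tumours the 27 genes lower became 8 without probe sets that may share sequence, 59 with array weights (2 higher), 1 at 2-fold and 5 at an adjusted p under 0.01, and 8 to 28 when 1 array was left out. In antibiotic tumours the 19 genes lower became 12 when the probe sets of a gene were averaged, 5 without probe sets that may share sequence, 32 with array weights, 8 when only the compared groups were fitted, 0 at 2-fold and 2 at an adjusted p under 0.01, and 3 to 22 when 1 array was left out. The 1 gene higher there became 0 without probe sets that may share sequence, with only the compared groups, at 2-fold and at an adjusted p under 0.01, and 0 to 1 when 1 array was left out. Between tumour groups leaving out 1 array gave 0 to 1 genes higher in Tlr4-mutant than in WT tumours (1 without WT tumour 22) and 0 to 1 higher than in antibiotic tumours (1 without antibiotic tumour 28). Fewer genes are tested without shared-sequence probe sets and fewer arrays enter when some are left out; the cause of the other changes was not tested. No paired analysis was possible because the groups share no replicate numbers. Signal over background limits Cox7a1, Ndufaf5 and the 10 genes below the brightness limit.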
